A study of Caenorhabditis elegans with 9 samples.

Results

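Cells keep their proteins folded with the ATP-driven chaperones HSP70 and HSP90, and 10 genes of this cytosolic machinery were followed here in worms under mitochondrial or histone stress. The genes were chosen by name: *hsp-1*, *hsp-70*, *F44E5.4* and *F44E5.5* encode HSP70 proteins, *hsp-90* (also called *daf-21*) encodes HSP90, and *hsp-110*, *dnj-12*, *dnj-13*, *bag-1* and *sti-1* encode their partners. All 10 are among the 46739 genes of the count table and all 10 are among the 16817 genes that were tested. mRNA came from whole wild-type N2 worms, put as L1 larvae on plates of bacteria and harvested as L4 larvae. The 3 control libraries are from worms fed the empty vector (EV), 3 are from worms fed *cco-1* RNAi, which lowers a subunit of respiratory complex IV, and 3 are from worms fed *his-3* RNAi, which is directed against core histone genes. The groups differ in the RNAi clone alone, and RNAi by feeding lowers a transcript without removing the gene.

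In the HSP70 cycle, J-domain proteins such as DNJ-12 and DNJ-13 hand unfolded proteins to HSP70 and stimulate its ATPase, and HSP110 and BAG-domain proteins then exchange the bound nucleotide so that the protein is released. STI-1 links HSP70 with HSP90, which finishes the folding of many kinases and receptors. In *C. elegans*, *hsp-1* and *hsp-90* are expressed at all times, while *hsp-70*, *F44E5.4* and *F44E5.5* are known as heat-inducible. The transcription factor HSF-1 drives heat-inducible HSP70 genes and also the small heat-shock protein genes of the *hsp-16* group, so the question asked of the data was whether the 10 chaperone genes move as the *hsp-16* genes do.

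The libraries held from 25129763 to 32017517 reads on genes. The normalized counts given below are reads scaled by TMM, a method that sets libraries to a common level on the bulk of their genes, and stand for a library of average effective size. Fold changes are given on the log2 scale with their standard error (SE). A change was called where the adjusted p was below 0.05 in edgeR's quasi-likelihood F test, with Benjamini-Hochberg adjustment over all 16817 genes, and every adjusted p given below is from this test. The labels do not say whether the 3 libraries of a group came from separate cultures, so the p-values measure the spread between these libraries, which may be technical. *cco-1*, listed as *cox-5B*, had a normalized count of 12649 ± 125 in EV and 4713 ± 209 under *cco-1* RNAi (SD, n = 3 each). *his-3* had 175 ± 5.33 in EV and a log2 fold change of −0.68 under *his-3* RNAi (adjusted p = 6.44e-05). *his-3* was also low under *cco-1* RNAi, at 17.7 ± 4.49 (SD, n = 3), and its reads are limited by near-identical histone genes.

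The 10 genes fell into 2 blocks. The 3 heat-inducible HSP70 genes rose with both treatments, by between 2.19 and 3.41 fold under *cco-1* RNAi and between 3.30 and 8.06 fold under *his-3* RNAi. The 7 abundant genes moved little: under *cco-1* RNAi *hsp-90* rose by 17.6% and the other 6 did not pass the test, and under *his-3* RNAi all 7 were lower, by between 8.19 and 22.9%. That decrease under *his-3* RNAi holds relative to the bulk of genes, and as an absolute change it depends on the scaling, as detailed below. Under *cco-1* RNAi, 4 of the 10 genes were called higher, where 34.9% of all genes tested were, and 0 were called lower, where 35.9% of all genes were. In that comparison 0 of the genes had a lower value at an unadjusted p under 0.05 in edgeR, and limma-voom and DESeq2 also called 0 lower. Under *his-3* RNAi, 3 of the 10 were called higher against 26.9% of all genes and 7 lower against 27.9% of all genes. The median log2 fold change of the 10 genes was 0.047 under *cco-1* RNAi and −0.21 under *his-3* RNAi, beside 0.0061 and 0.020 over all genes tested. The study set thresholds of 0.05 for the adjusted p and 2 for the size of the log2 fold change, and both were passed by *F44E5.4* and *F44E5.5* under *his-3* RNAi, where 3.95% of all genes passed them. Under *cco-1* RNAi 0 of the 10 genes passed these thresholds, as against 10.9% of all genes, and limma-voom and DESeq2 likewise gave 0.

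**Figure D1:**
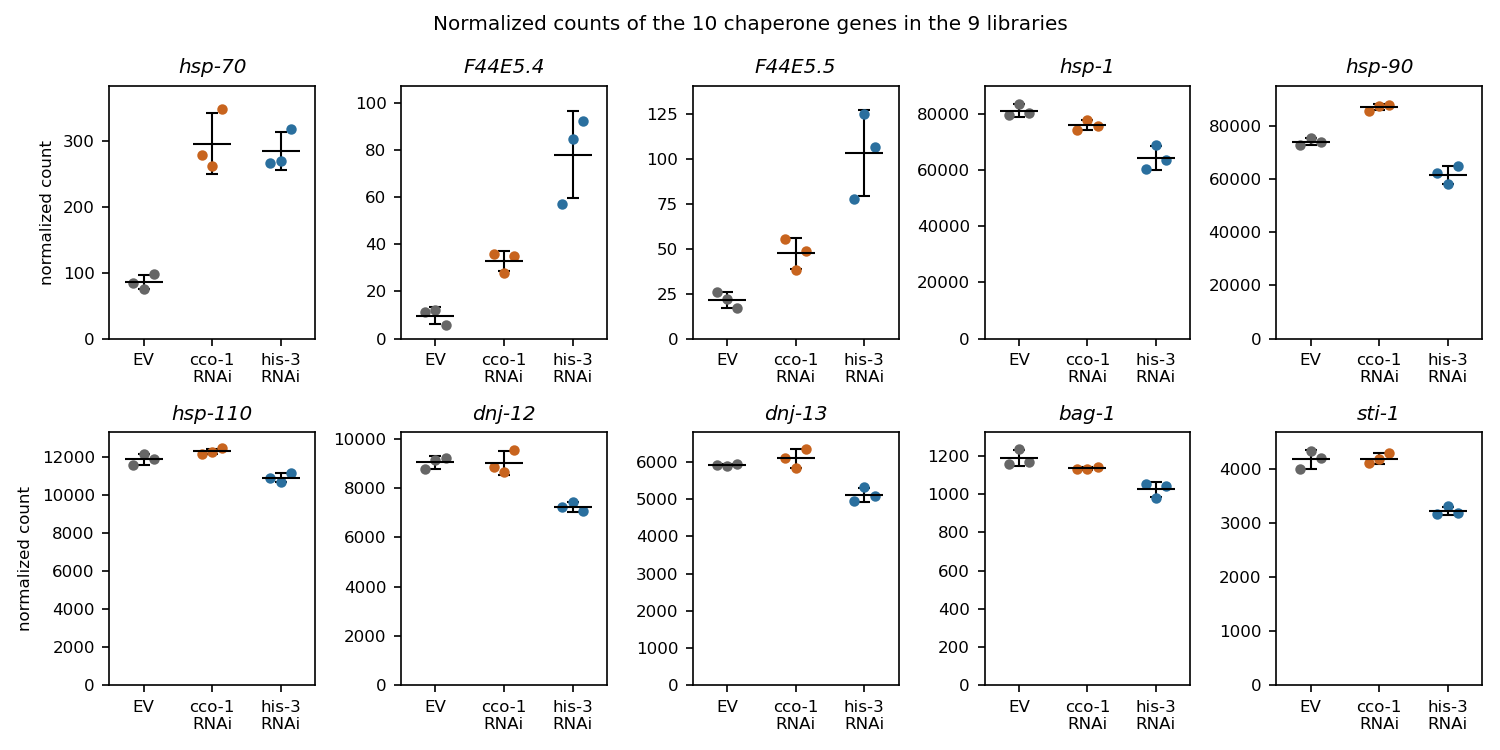
Normalized counts (vertical axes, each from 0) of the 10 genes in the 3 EV, 3 *cco-1* RNAi and 3 *his-3* RNAi libraries. Each point is a library, the horizontal bar is the mean and the whiskers are 1 SD; the 3 EV libraries lie below all treated libraries for *hsp-70*, *F44E5.4* and *F44E5.5*, and above all *his-3* RNAi libraries for the other 7 genes. The share of all genes whose libraries separate in this way was not computed.

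*hsp-70* (WBGene00002026, chromosome I, 9320325 to 9322519 on the minus strand of WBcel235, 3 exons) had normalized counts of 85.0, 75.1 and 97.5 in EV, 278, 262 and 348 under *cco-1* RNAi, and 267, 270 and 318 under *his-3* RNAi. Every treated library lay above every EV library, and the libraries of the 2 treatments overlapped. The log2 fold change of *hsp-70* against EV was 1.77 under *cco-1* RNAi (SE 0.135, adjusted p = 4.22e-09) and 1.72 under *his-3* RNAi (SE 0.133, adjusted p = 1.32e-08). No difference between the treatments was called (*his-3* RNAi against *cco-1* RNAi, log2 difference −0.049, 95% interval −0.28 to 0.18, adjusted p = 0.706), and this interval is the range of differences that the libraries allow. The gene lies within the bounds of *uggt-2*, which is on the opposite strand and shares 0 exon bases with it. *uggt-2* itself had a log2 fold change of −0.41 under *cco-1* RNAi (adjusted p = 1.71e-06) and −0.075 under *his-3* RNAi (adjusted p = 0.205). Its bearing on the counts of *hsp-70* was not tested.

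*F44E5.4* (WBGene00009691, minus strand, 11757107 to 11759311) and *F44E5.5* (WBGene00009692, plus strand, 11759662 to 11761861) lie head to head on chromosome II with 350 bases between their starts, and each has 2 exons. *F44E5.4* had few reads in EV, 11, 11 and 6, and 35, 28 and 31 reads under *cco-1* RNAi and 61, 92 and 98 reads under *his-3* RNAi. Its 3 groups did not overlap in normalized counts, and *his-3* RNAi stood highest. Its log2 fold change was 1.77 under *cco-1* RNAi (SE 0.334, adjusted p = 0.000172) and 3.01 under *his-3* RNAi (SE 0.276, adjusted p = 1.04e-07). *F44E5.5* had 25, 20 and 18 reads in EV, 54, 38 and 43 under *cco-1* RNAi, and 83, 136 and 113 under *his-3* RNAi. The order of the groups was the same as for its neighbour, again with no overlap in normalized counts. Its log2 fold change was 1.13 under *cco-1* RNAi (SE 0.266, adjusted p = 0.00124) and 2.25 under *his-3* RNAi (SE 0.225, adjusted p = 3.01e-07).

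Unlike *hsp-70*, the head-to-head pair differed between the treatments. *F44E5.4* was 2.37 fold higher under *his-3* RNAi than under *cco-1* RNAi (95% interval 1.73 to 3.24, adjusted p = 6.75e-05) and *F44E5.5* 2.18 fold higher (95% interval 1.64 to 2.90, adjusted p = 6.66e-05). In this direct comparison 2 of the 10 genes were called higher under *his-3* RNAi, against 36.8% of all genes, and 7 lower, against 31.8% of all genes. The pair are close copies, and reads that aligned to more than a single place were left uncounted by the authors. Their counts therefore rest on the reads that tell the copies apart, and their true levels may be higher. The share of *F44E5.4* in the normalized counts of the pair was 30.3 ± 5.25% in EV, 41.2 ± 1.66% under *cco-1* RNAi and 43.1 ± 3.11% under *his-3* RNAi (SD, n = 3 each).

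**Figure D2:**
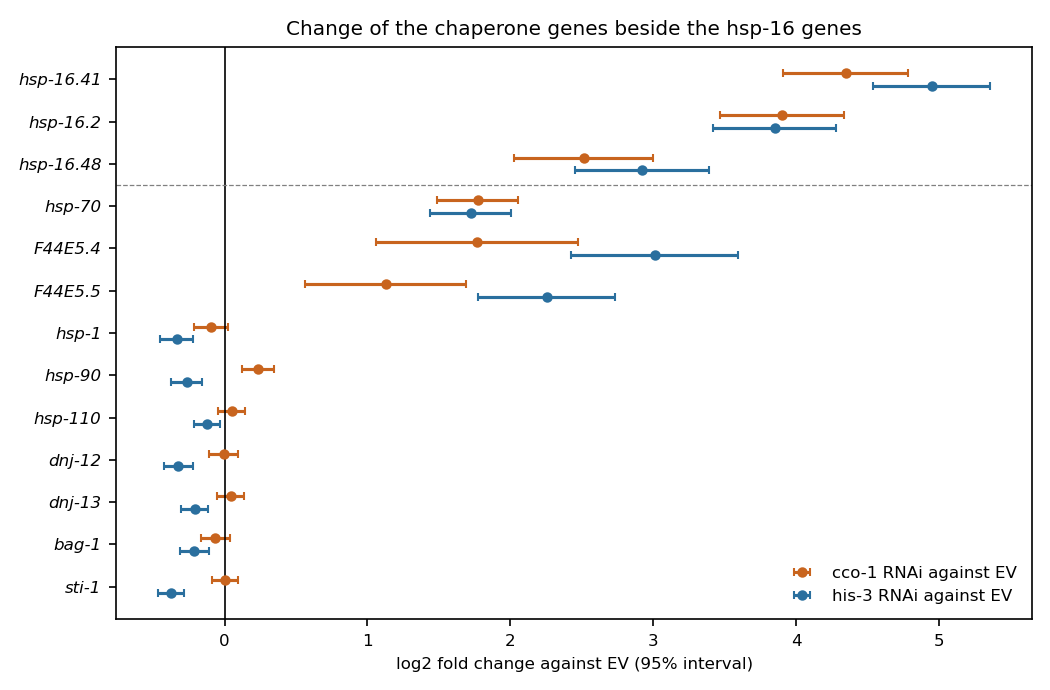
Change against EV (horizontal axis, log2 scale) of the 3 tested *hsp-16* genes, above the dashed line, and of the 10 chaperone genes, under *cco-1* RNAi in orange and *his-3* RNAi in blue. Points are edgeR estimates from 3 libraries a group and bars are 95% intervals; the 3 heat-inducible HSP70 genes lie between 1.13 and 3.01, the 7 abundant genes between −0.37 and 0.23.

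The *hsp-16* genes were the yardstick. Of the 6 genes of this group, 3 passed the filter on low counts, and the others had at most 2 reads in any library, and are near-identical copies within the group. *hsp-16.2* had a log2 fold change of 3.90 under *cco-1* RNAi and 3.85 under *his-3* RNAi, *hsp-16.41* of 4.35 and 4.95, and *hsp-16.48* (WBGene00002019) of 2.52 and 2.92, all with adjusted p of at most 4.46e-08. The 3 heat-inducible HSP70 genes thus moved in the same direction as the *hsp-16* genes with both treatments, and of the 7 abundant genes only *hsp-90* under *cco-1* RNAi was called higher with TMM scaling. Both comparisons use the same EV libraries. *hsp-16.41* was higher under *his-3* RNAi than under *cco-1* RNAi (log2 difference 0.60, adjusted p = 0.000238), and so was *hsp-16.48* (0.40, adjusted p = 0.0466, with overlapping libraries), as *F44E5.4* and *F44E5.5* were, whereas for *hsp-16.2*, as for *hsp-70*, no difference was called (−0.051, 95% interval −0.33 to 0.23, adjusted p = 0.748). *hsp-16.2* and *hsp-16.41* are likewise a head-to-head pair, with 220 bases between their starts on chromosome V.

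How far each gene lagged behind *hsp-16.2* was read within each library as the ratio of normalized counts, which no scaling between libraries can move. The ratio of *hsp-70* to *hsp-16.2* was 2.10, 1.66 and 2.02 in EV, 0.420, 0.471 and 0.435 under *cco-1* RNAi, and 0.368, 0.554 and 0.437 under *his-3* RNAi. It was thus 4.34 fold lower under *cco-1* RNAi and 4.29 fold lower under *his-3* RNAi, without overlap with EV. For *F44E5.5* the ratio was 6.82 fold lower under *cco-1* RNAi and 3.02 fold lower under *his-3* RNAi. For *F44E5.4* the ratio was 4.20 fold lower under *cco-1* RNAi and 1.73 fold lower under *his-3* RNAi, and in the latter the libraries overlapped with EV (0.282, 0.268 and 0.118 in EV, 0.0787, 0.173 and 0.127 under *his-3* RNAi, exact permutation test, two-sided p = 0.3). The ratio of *hsp-1* to *hsp-16.2* was 15.9 and 18.1 fold lower and that of *hsp-90* 12.7 and 17.2 fold lower. *hsp-16.2* itself rose 14.9 and 14.4 fold, so the ratios of these abundant genes mainly reflect its change. Of the 10 ratios compared, 9 gave p = 0.1 in the exact permutation test (two-sided, 0.111 after Benjamini-Hochberg adjustment). This is the smallest p that 3 libraries against 3 allow, so none can reach 0.05. All 10 share the *hsp-16.2* counts and the EV libraries, so they are not separate results. The size of the lag depended on the *hsp-16* gene taken as the denominator. Against *hsp-16.41* the ratio of *hsp-70* was 5.99 and 9.35 fold lower under *cco-1* and *his-3* RNAi, and against *hsp-16.48* it was 1.66 and 2.21 fold lower, each time without overlap with EV. For *F44E5.5* it was 9.41 and 6.57 fold lower against *hsp-16.41*, and 2.62 and 1.55 fold lower against *hsp-16.48*, the last with overlap. The ratio of *F44E5.4* was 5.80 and 3.76 fold lower against *hsp-16.41*, without overlap, whereas against *hsp-16.48* it was 1.61 fold lower and 1.13 fold higher, with overlap in both. *hsp-1* and *hsp-90* lagged by between 17.5 and 39.3 fold against *hsp-16.41* and between 4.87 and 9.28 fold against *hsp-16.48*. *hsp-16.48* was added as a denominator after its values had been seen, and its count is limited by reads shared with its near-identical copy.

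**Figure D3:**
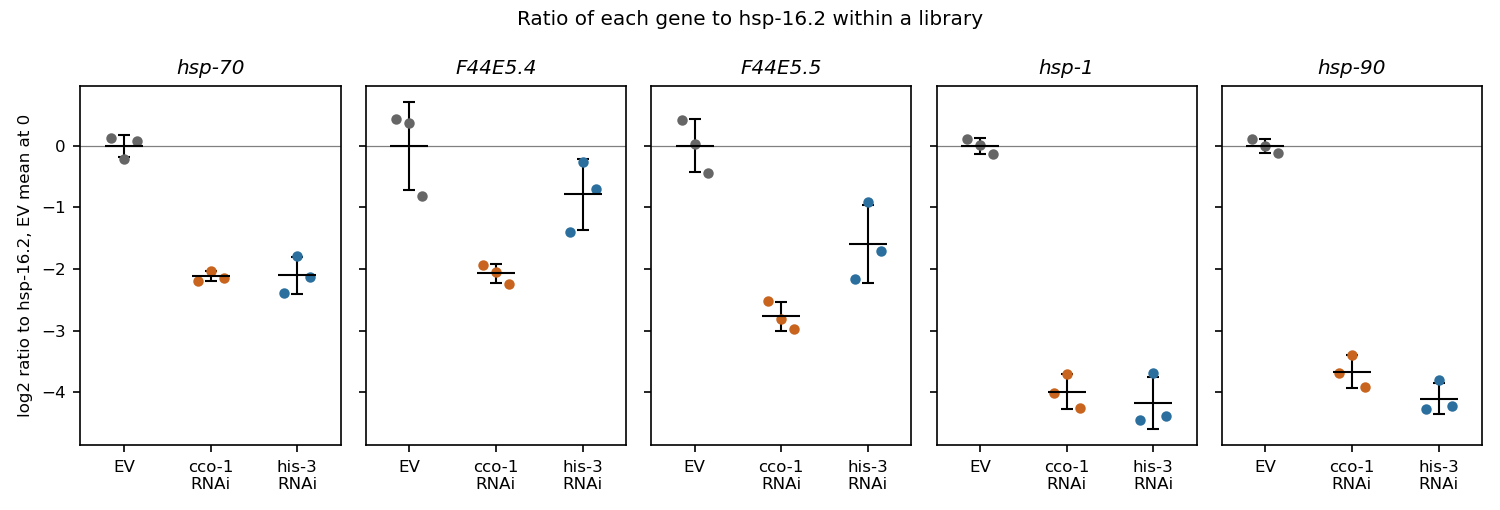
Log2 ratio of 5 chaperone genes to *hsp-16.2* within each library (vertical axis, the EV mean of each gene set at 0), by group. Points are libraries, bars the mean and whiskers 1 SD; for *hsp-70* both treatments lie near −2.1, for *hsp-1* near −4, and for *F44E5.4* under *his-3* RNAi the points reach into the range of EV.

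*hsp-1* (WBGene00002005, chromosome IV, 17278959 to 17281330, plus strand, 4 exons), the constitutive HSP70, had normalized counts of 79631, 83768 and 80310 in EV. It had 74445, 77958 and 75897 under *cco-1* RNAi and 60524, 68875 and 63782 under *his-3* RNAi. All treated libraries lay below EV, under *his-3* RNAi lowest. The log2 fold change of *hsp-1* was −0.094 under *cco-1* RNAi (95% interval −0.21 to 0.023, adjusted p = 0.138), which did not pass the test, and −0.34 under *his-3* RNAi (SE 0.0552, adjusted p = 7.50e-05). The *cco-1* RNAi value of *hsp-1* passed the test when only EV and *cco-1* RNAi libraries were fitted (adjusted p = 0.0102) and without the second *his-3* RNAi library (adjusted p = 0.0373).

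*hsp-90* (WBGene00000915, chromosome V, 14684918 to 14688545, plus strand) was the single gene of the 10 that was called in opposite directions by the treatments. Its normalized counts were 72869, 75442 and 73768 in EV, 85772, 87624 and 87699 under *cco-1* RNAi, and 62115, 58036 and 64723 under *his-3* RNAi, and the 3 groups did not overlap. The log2 fold change was 0.23 under *cco-1* RNAi (SE 0.0518, adjusted p = 0.000741) and −0.26 under *his-3* RNAi (SE 0.0519, adjusted p = 0.000385), and the direct difference between *his-3* and *cco-1* RNAi was −0.50 (SE 0.0520, adjusted p = 2.47e-07). The increase under *cco-1* RNAi kept its direction and its call under all alternatives tried. The decrease under *his-3* RNAi turned to 0.029 (adjusted p = 0.725) when *act-1* and *pmp-3* set the scale, these being the reference genes of the study's quantitative PCR. Relative to the median of all genes, *hsp-90* stood between 0.227 and 0.228 under *cco-1* RNAi and between −0.285 and −0.282 under *his-3* RNAi under 5 scalings. A change of scaling moves all genes about alike, so this agreement follows from the calculation and does not test the decrease.

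The partners of the 2 chaperones behaved like *hsp-1*. Under *cco-1* RNAi the log2 fold changes of *hsp-110*, *dnj-12*, *dnj-13*, *bag-1* and *sti-1* lay between −0.066 and 0.049, with adjusted p of at least 0.232. Under *his-3* RNAi *sti-1* (WBGene00019983, chromosome V), the adaptor between HSP70 and HSP90, showed the largest decrease of the 10 genes. Its normalized counts were 4006, 4348 and 4201 in EV, 4110, 4182 and 4305 under *cco-1* RNAi, and 3178, 3321 and 3184 under *his-3* RNAi. The EV and *cco-1* RNAi libraries overlapped and the *his-3* RNAi libraries lay below both, with a log2 fold change of −0.37 under *his-3* RNAi (SE 0.0434, adjusted p = 1.69e-06) and 0.0048 under *cco-1* RNAi (95% interval −0.087 to 0.096, adjusted p = 0.927).

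Both J-domain genes followed this pattern. *dnj-12* (WBGene00001030, chromosome I), of class A, had 8768, 9157 and 9245 normalized counts in EV and 7222, 7437 and 7062 under *his-3* RNAi, a log2 fold change of −0.32 (SE 0.0485, adjusted p = 2.86e-05). *dnj-13* (WBGene00001031, chromosome II), of class B, had 5916, 5893 and 5942 in EV and 4964, 5328 and 5083 under *his-3* RNAi, a log2 fold change of −0.21 (SE 0.0444, adjusted p = 0.00083). The *his-3* RNAi libraries lay below all EV and all *cco-1* RNAi libraries for both genes.

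The nucleotide exchange factors were lower as well. *bag-1* (WBGene00000236, chromosome I) had 1160, 1236 and 1170 normalized counts in EV and 1052, 979 and 1045 under *his-3* RNAi, a log2 fold change of −0.21 (SE 0.0481, adjusted p = 0.00131). *hsp-110* (WBGene00016250, chromosome III) had 11598, 12198 and 11913 in EV and 10918, 10685 and 11179 under *his-3* RNAi. Its log2 fold change of −0.12 (SE 0.0438, adjusted p = 0.0253) was the weakest call among the 10, and it was lost without the second EV library (adjusted p = 0.0892), without the third EV library (adjusted p = 0.0733) and with upper-quartile scaling (adjusted p = 0.413).

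The decreases under *his-3* RNAi are changes relative to other genes. Scaling by library size alone moved the median log2 fold change of all genes to 0.10 under *cco-1* RNAi and 0.24 under *his-3* RNAi, and scaling to *act-1* and *pmp-3* moved it to 0.17 and 0.31. Under *his-3* RNAi, 2 of the 7 abundant genes (*hsp-1* and *sti-1*) were still called lower by library size alone. When scaled to *act-1* and *pmp-3*, 0 were called lower. In the latter scaling *hsp-110* was called higher (log2 fold change 0.17, adjusted p = 0.02), as were 9450 of all genes tested. Lower calls among all genes also fell, from 4688 with TMM to 2457 by library size alone and 1827 with *act-1* and *pmp-3*. The drop in lower chaperone genes thus went with fewer lower calls among all genes. At an unadjusted p under 0.05, edgeR likewise gave 0 of the 7 lower with *act-1* and *pmp-3*. limma-voom and DESeq2 were not run in this scaling. *act-1* itself had a log2 fold change of −0.64 under *his-3* RNAi under TMM, and *pmp-3* of 0.060. Relative to the median of all genes, the 7 genes lay between −0.40 and −0.14 under *his-3* RNAi and between −0.10 and 0.23 under *cco-1* RNAi under each of the 5 scalings, which move all genes about alike. Under *his-3* RNAi, between 64.7 and 83.5% of all genes tested had a more positive log2 fold change than each of the 7. The 3 heat-inducible HSP70 genes were called higher with both treatments under all 5 scalings.

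**Figure D4:**
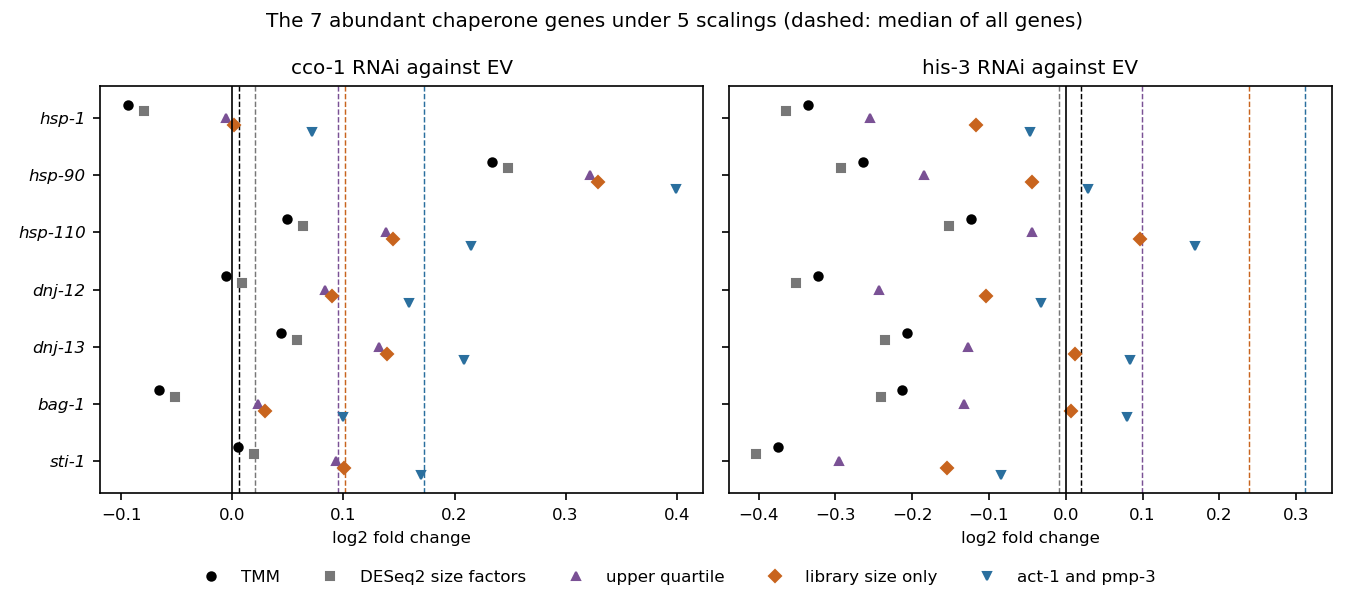
Log2 fold change against EV (horizontal axes) of the 7 abundant chaperone genes under 5 ways of scaling the libraries, under *cco-1* RNAi on the left and *his-3* RNAi on the right. Each symbol is a scaling and each dashed line the median of all genes under it; under *his-3* RNAi every symbol lies left of its own dashed line, while several cross 0.

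Per unit of exon length the 10 genes spanned a 1855-fold range, and the treatments did not bridge it. The levels, in normalized CPM per kb of exon as the mean of the 9 libraries, were 1258 for *hsp-1* and 1110 for *hsp-90*. These were followed by *dnj-12* at 178, *hsp-110* at 153, *dnj-13* at 144, *sti-1* at 125 and *bag-1* at 54.9. *hsp-70* stood at 3.81, *F44E5.5* at 0.968 and *F44E5.4* at 0.678, where the level of the pair is limited by the uncounted shared reads. The gap between the leading genes differed between the groups. *hsp-1* exceeded *hsp-90* in EV (1382 ± 37.8 against 1107 ± 19.5) and under *his-3* RNAi (1096 ± 71.6 against 922 ± 50.4). Under *cco-1* RNAi the values lay within 1 SD of each other (1295 ± 30.1 against 1302 ± 16.3), so no order is shown there. The ratio of *hsp-90* to *hsp-1* per kb was 0.804, 0.791 and 0.807 in EV, 1.01, 0.988 and 1.02 under *cco-1* RNAi, and 0.902, 0.740 and 0.892 under *his-3* RNAi. It was higher in all *cco-1* RNAi libraries than in EV, while the *his-3* RNAi libraries lay on both sides of EV. In EV the neighbouring *hsp-110* (155 ± 3.92) and *dnj-13* (149 ± 0.614) differed by less than 2 SD of *hsp-110* (SD, n = 3 each).

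The inducible genes remained a small part of the cytosolic HSP70 message. Of the summed level per kb of *hsp-1*, *hsp-70*, *F44E5.4* and *F44E5.5*, the 3 inducible genes made up 0.154, 0.131 and 0.150% in EV, 0.495, 0.420 and 0.569% under *cco-1* RNAi, and 0.661, 0.692 and 0.805% under *his-3* RNAi. Their share was higher in every treated library than in every EV library, and higher in every *his-3* RNAi than in every *cco-1* RNAi library. The share of *F44E5.4* and *F44E5.5* is limited by the uncounted shared reads, and lower *hsp-1* counts also raise the share of the inducible genes. The sum itself was 1384 ± 37.6 in EV, 1302 ± 29.6 under *cco-1* RNAi and 1104 ± 72.2 under *his-3* RNAi (SD, n = 3 each). It is almost all *hsp-1*, whose decrease under *his-3* RNAi depends on the scaling. Scaled to *act-1* and *pmp-3*, its log2 fold change was −0.046 (adjusted p = 0.531).

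**Figure D5:**
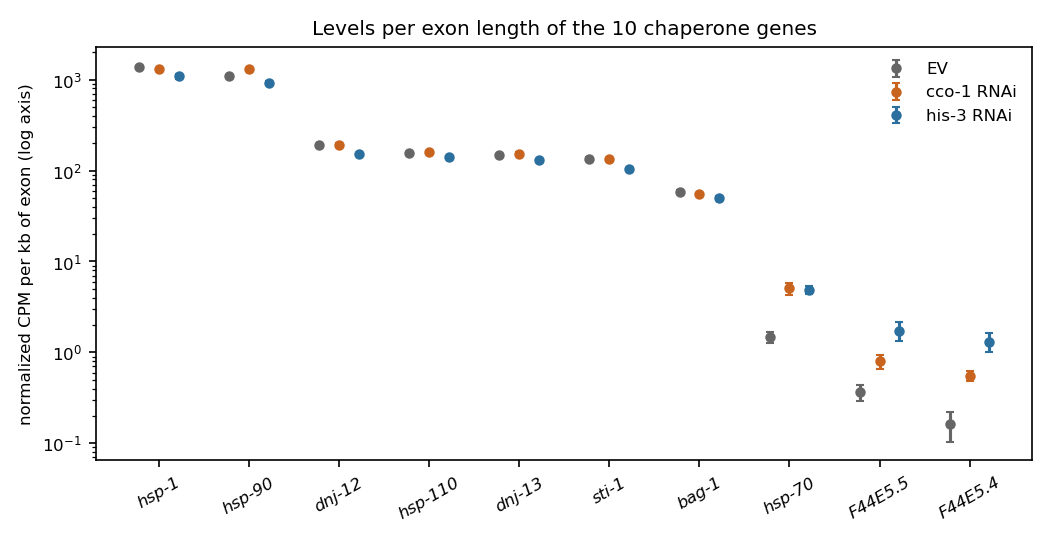
Level of the 10 genes in normalized CPM per kb of exon (vertical log axis), ordered by the mean of the 9 libraries, in EV (grey), *cco-1* RNAi (orange) and *his-3* RNAi (blue). Points are means of 3 libraries and bars 1 SD; *hsp-1* and *hsp-90* lie at the top, between 922 and 1382, and the 3 heat-inducible HSP70 genes at the bottom, between 0.164 and 5.08, in all groups.

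Other genes of the cytosolic folding machinery were read from lists drawn up by name. Of all genes tested, 34.9% were called higher and 35.9% lower under *cco-1* RNAi, and 26.9% higher and 27.9% lower under *his-3* RNAi. Of 11 further co-chaperones, 4 were higher and 7 lower under *cco-1* RNAi, and 1 was higher and 10 lower under *his-3* RNAi. Their medians were −0.16 and −0.32 on the log2 scale beside 0.0061 and 0.020 over all genes. *unc-45*, which folds myosin with HSP90, fell by 0.55 under *cco-1* RNAi and by 0.47 under *his-3* RNAi on the log2 scale (adjusted p = 2.72e-09 and 4.68e-08). The p23 gene *daf-41* fell by 0.29 and 0.47 (adjusted p = 1.89e-05 and 1.30e-07). The TPR protein gene *sgt-1* was higher under *cco-1* RNAi and lower under *his-3* RNAi (log2 fold changes 0.64 and −0.17, adjusted p = 4.53e-09 and 0.0072), and so was the phosphatase gene *pph-5* (0.21 and −0.43, adjusted p = 0.000242 and 2.09e-07). The ubiquitin ligase gene *chn-1* was higher in both (0.72 and 0.17, adjusted p = 8.52e-09 and 0.019). Of the 14 genes of the chaperonin and of prefoldin, which fold actin and tubulin, all were lower under *his-3* RNAi, while 11 were lower under *cco-1* RNAi and the others did not pass the test, with medians of −0.45 and −0.21 on the log2 scale. Among them *cct-7* had log2 fold changes of −0.22 and −0.51 and *pfd-2* of −0.49 and −0.44.

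Of *hsf-1* and 3 genes for its regulators, 2 were called higher and 1 lower under *cco-1* RNAi, beside 34.9% and 35.9% of all genes. Under *his-3* RNAi 0 were called higher and 1 lower, beside 26.9% and 27.9% of all genes. *hsf-1* itself did not pass the test. It had normalized counts of 1470, 1393 and 1395 in EV, 1502, 1398 and 1612 under *cco-1* RNAi, and 1493, 1545 and 1429 under *his-3* RNAi. The groups overlapped, and the log2 fold changes were 0.082 (95% interval −0.033 to 0.20, adjusted p = 0.187) and 0.070 (95% interval −0.045 to 0.18, adjusted p = 0.294). *hsb-1*, which encodes a binding protein of HSF-1, stood at −0.23 and −0.22 on the log2 scale (adjusted p = 0.000184 and 0.000544). *ddl-1* and *ddl-2*, whose products hold HSF-1 inactive together with HSB-1, were higher under *cco-1* RNAi (0.23 and 0.49, adjusted p = 0.0354 and 0.000194), and under *his-3* RNAi they were at 0.016 and −0.068 (adjusted p = 0.896 and 0.577).

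The HSP70 and HSP90 genes of other compartments did not move as 1 group under *cco-1* RNAi. The mitochondrial HSP70 gene *hsp-6* rose from 16139 ± 669 normalized counts in EV to 39515 ± 229 under *cco-1* RNAi (SD, n = 3 in both groups), or 1.29 on the log2 scale (adjusted p = 2.59e-13), and was at −0.12 under *his-3* RNAi (adjusted p = 0.0409). The HSP70 gene *hsp-4* of the endoplasmic reticulum fell by 0.71 on the log2 scale under *cco-1* RNAi (adjusted p = 1.93e-10), and was at −0.088 under *his-3* RNAi (adjusted p = 0.0933). For *hsp-3*, of the same compartment, the log2 fold changes were −0.0091 and −0.23 (adjusted p = 0.895 and 0.00287). The HSP90 gene *enpl-1* of the endoplasmic reticulum stood at 0.27 and −0.043 on the log2 scale (adjusted p = 0.000311 and 0.529), and the mitochondrial HSP90 gene *hsp-75* of 0.23 and −0.33 (adjusted p = 0.000376 and 1.86e-05). *hsp-75* was thus higher under *cco-1* RNAi and lower under *his-3* RNAi, the pattern of *hsp-90*.

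Markers of tissues also differed between the groups, in part in other directions than the abundant chaperone genes. In whole worms, fewer cells of a type and less RNA per cell cannot be told apart. The counts of markers stand beside 34.9% of all genes called higher and 35.9% lower under *cco-1* RNAi. Under *his-3* RNAi these shares were 26.9% and 27.9%. The summed level of 4 body wall muscle genes (*unc-54*, *myo-3*, *unc-15* and *unc-27*) was between 12607 and 13977 CPM in EV, between 9746 and 10116 under *cco-1* RNAi and between 8820 and 9893 under *his-3* RNAi, and all 4 were called lower with both treatments. Of 9 germline genes, 1 was higher and 6 lower under *cco-1* RNAi and 3 higher and 6 lower under *his-3* RNAi. The 3 higher under *his-3* RNAi were *mex-5*, *oma-1* and *rme-2* (log2 fold changes 0.43, 0.30 and 0.38). The sums of the 9 were between 1549 and 1567 in EV, between 1273 and 1299 under *cco-1* RNAi and between 1349 and 1406 under *his-3* RNAi. *glh-1*, the most abundant of the 9, weighs most in these sums, with log2 fold changes of −0.50 under *cco-1* RNAi and −0.44 under *his-3* RNAi. Of 29 tested *msp* genes of sperm, 28 were lower under *cco-1* RNAi and 11 higher under *his-3* RNAi. Of 4 intestinal genes (*ges-1*, *elt-2*, *act-5* and *elt-7*), 2 were higher and 2 lower under *cco-1* RNAi, and all 4 were lower under *his-3* RNAi. Their sums were between 1004.5 and 1073 CPM in EV, between 1813 and 1843 under *cco-1* RNAi and between 639 and 802 under *his-3* RNAi. These sums rest mainly on *act-5*, the most abundant of the 4. The part of these shifts in the values of the chaperone genes was not tested.

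Genes most like *hsp-90* and *hsp-70* over the 9 libraries were sought among 12167 other genes whose normalized count averaged 100 or more. Those closest to *hsp-90* were *coq-6* (Pearson r = 0.998), *F46B6.6* (0.997) and *F09E5.3* (0.997). Those closest to *hsp-70* were *Y4C6B.3* (0.995), *dscc-1* (0.994) and *skr-5* (0.991). Over 9 libraries in 3 groups such values are common: 1208 genes had an r over 0.9 with *hsp-90* and 657 with *hsp-70*.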

How the data were processed

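The 9 stranded mRNA libraries shared a lane. Per the submitters' processing notes, the authors used STAR 2.5.3a, HTSeq and WBcel235, and the deposited values are raw counts of reads on each gene, neither normalized nor filtered. Whether the counting used strand is not given in the sources used here. The summary lines of HTSeq were left out of all tests. Reads that aligned to several places made up between 6.30 and 7.27% of the reads of each library, reads on no gene between 0.715 and 1.13% and ambiguous reads between 0.326 and 0.366%.

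A gene was tested if over 5 reads fell on it in over 3 libraries (16817 genes). Counts were scaled by TMM and 1 model with 3 group means was fitted to all 9 libraries, with a prior count of 0.125, in edgeR 4.0.16 (R 4.3.3). The biological coefficient of variation was 4.92%, and at these depths it, rather than counting error, limits the abundant genes, while counting error matters for *F44E5.4* and *F44E5.5*. Standard errors were derived from the estimate and its F statistic (estimate over root F). Ratios within libraries were compared with an exact permutation test. Gene names, positions and exon lengths are from the Ensembl release 115 annotation of WBcel235, the length being the union of the exons of a gene. Sequences were not used here, so that the search of promoters and the comparison of proteins that had been laid out were not made. The procedure was tested on simulated data in which few genes changed, in the *cco-1* RNAi group alone. In the real data many genes were called in both treatments, so that test does not bear on the choice of scaling.

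The study named the limma package, and limma-voom (limma 3.58.1) was run as an alternative. The others were DESeq2 1.42.0, 4 other scalings, 2 other filters, a prior count of 2, fits of the compared groups alone, a block for the replicate number, omitting libraries in turn, summing *F44E5.4* and *F44E5.5*, leaving out sperm genes, and *hsp-16.41* or, chosen after seeing the data, *hsp-16.48* as the denominator. Named were all 10 genes, the tested *hsp-16* genes, the regulators and organelle genes, up to 5 genes of each other list by lowest p, and the 3 genes most like *hsp-90* and *hsp-70*. The members and lists were chosen with earlier results of these data known. *uggt-2* was added after its overlap with *hsp-70* was seen, and *hsp-75* replaced a list entry whose symbol belongs to another gene.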

Additional observations from a re-analysis of the deposited data

How the results depend on the processing

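Of 657 member values recomputed over 22 alternatives, 607 kept their direction and their side of the threshold. Library size alone gave 7 genes higher under *cco-1* RNAi, and 2 lower under *his-3* RNAi. Of all genes, 6925 were higher and 2457 lower in these comparisons. Scaling to *act-1* and *pmp-3* gave 8 higher under *cco-1* RNAi, 0 lower under *his-3* RNAi and 4 lower in the direct comparison. The matching numbers over all genes were 7529 higher, 1827 lower and 3945 lower. Requiring more than 50 reads dropped *F44E5.4*, so that 1 gene was higher in the direct comparison and 1 passed the study's thresholds, and summing the *F44E5.4* pair likewise left 1 and 1. Of all genes, 5021 were higher in the direct comparison with the stricter filter and 6190 with the summed pair. The numbers of all genes past the study's thresholds in these settings were not computed. Fitting only the compared groups gave 1 gene lower under *cco-1* RNAi, where 6240 of all genes were lower. With a library left out, between 0 and 1 genes were lower under *cco-1* RNAi, between 6 and 7 under *his-3* RNAi and 7 in the direct comparison. Lower calls over all genes then ranged from 5736 to 6184, from 4250 to 4761 and from 5043 to 5658.

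Values that changed sign were these on the log2 scale, of which only *hsp-110* with the reference genes was called in both settings. Under *cco-1* RNAi, *dnj-12* came to 0.0087 with DESeq2, 0.0088 with its size factors, 0.083 with upper quartile, 0.090 with library size, 0.16 with the reference genes and 0.022 with the stricter filter. *bag-1* came to 0.023, 0.030 and 0.10 with upper quartile, library size and the reference genes, and *hsp-1* to 0.0016 and 0.072 with the latter scalings. Under *his-3* RNAi, library size gave 0.097 for *hsp-110*, 0.012 for *dnj-13* and 0.0073 for *bag-1*, and the reference genes gave 0.17, 0.083 and 0.079, with *hsp-90* at 0.029. *hsp-70* in the direct comparison came to 0.074 and 0.077 with the same scalings. With each library left out in turn, *dnj-12* under *cco-1* RNAi ranged from −0.049 to 0.024, *sti-1* from −0.025 to 0.033, and *hsp-70* in the direct comparison from −0.13 to 0.079. With *hsp-16.48* as the denominator, chosen after seeing the data, the log2 change of the *F44E5.4* ratio under *his-3* RNAi turned from −0.79 to 0.17. The cause was not tested beyond the shift of all genes given above.

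Same-numbered libraries had deviations that correlated between −0.0475 and 0.105, over 0.1 in 1 of 9 pairs, so little shared deviation was seen. The labels do not say whether the numbers mark shared cultures or days, and low correlations cannot settle it. With the replicate block, 4 genes were higher under *cco-1* RNAi, and 3 higher and 7 lower under *his-3* RNAi, as without it. The matching numbers over all genes were 5868 higher, and 4499 higher and 4675 lower.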
